A study of Mus musculus with 14 samples.

Results

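The CCT chaperonin, also called TRiC, is the chaperonin of the cytosol, and the 8 genes described here encode its subunits: Tcp1, Cct2, Cct3, Cct4, Cct5, Cct6a, Cct7 and Cct8. They were taken by symbol from a deposited table of 19360 gene symbols, and all 8 were present, each with 1 transcript, and all 8 passed the filter on low counts. Tissue was anterior cortex, taken at 15 months of age from 14 mice of the C57BL/6J strain, and each mouse gave 1 RNA library: there were 4 mice homozygous for the DG allele of Vcp (DG/DG), 6 heterozygous mice (DG/+) and 4 wild-type mice (WT). Vcp encodes an ATPase that unfolds ubiquitinated proteins and pulls them out of complexes and aggregates. The series title names the allele a dominant hypomorph and concerns the disaggregation of tau filaments. No promoter-driven transgene or Cre is named in the labels, and no sex or litter is given.

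CCT is built of a pair of stacked rings, and each ring holds 1 copy of each of the 8 subunits in a fixed order around a folding chamber. ATP binding and hydrolysis close a lid over the chamber, in which actin, the tubulins and many proteins with WD repeats, such as the beta subunits of G proteins, reach their folded state. Prefoldin, a separate chaperone, hands unfolded actin and tubulin to CCT, and phosducin-like proteins bind CCT as cofactors. In neurons CCT is known for supplying the actin and tubulin of axons and dendrites and, in cell and yeast models, for limiting the aggregation of huntingtin with long polyglutamine tracts. Because every ring needs each subunit, the levels of the 8 transcripts relative to each other were examined beside their levels by genotype.

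The genes lie on 8 different chromosomes. In the mm10 assembly (GRCm38.p6) the alpha subunit gene Tcp1 (NM_013686) spans chr17:12916329-12925067 on the plus strand with 12 exons, the beta subunit gene Cct2 (NM_007636) chr10:117050997-117063852 on the minus strand with 16 exons, and the gamma subunit gene Cct3 (NM_009836) chr3:88297135-88321766 on the plus strand with 14 exons. The delta subunit gene Cct4 (NM_009837) spans chr11:22990593-23003336 on the plus strand with 14 exons, the epsilon subunit gene Cct5 (NM_007637) chr15:31590800-31601846 on the minus strand with 11 exons, and the zeta subunit gene Cct6a (NM_009838) chr5:129787356-129846443 on the plus strand with 13 exons. The eta subunit gene Cct7 (NM_007638) spans chr6:85451505-85468477 on the plus strand with 12 exons, and the theta subunit gene Cct8 (NM_009840) chr16:87483325-87495869 on the minus strand with 15 exons. The transcripts are 1853 bases (Cct5) to 2484 bases (Cct4) long and have a GC content of 43.3% (Cct8) to 54.0% (Cct7). For Cct6a the exon number, length and GC content are those of the gene's longest transcript, since its accession was not linked in the annotation used.

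The promoters are shown as a description. Their part in the joint variation of the 8 transcripts across libraries, described further on, was not tested. RefSeq promoter windows (GRCm38.p6) were matched for 7 of the 8 genes, all but Cct4, and the 250 bases before each start were searched on both strands. The letters CCAAT, the core of the NF-Y binding site, were found in 4 of the 7 windows (Tcp1, Cct3, Cct6a and Cct7) and in 33.8% of 32851 promoters. GGGCGG, the core of the Sp1 site, was found in 7 of 7 and in 32.7% of all promoters. CCGGAAGT, a match to the sites of ETS factors, was found in Cct8 alone and in 2.88% of all promoters. Of 2 forms of the heat shock element, GAANNTTC was in none of the 7 windows and in 6.69% of promoters, and TTCNNGAA was in Cct5 and in 7.17% of promoters. A match is a description of letters and not of binding. The 150 bases that end just before the start are given below for the 5 genes with a CCAAT or CCGGAAGT match, 5′ to 3′ on the gene's strand, with those letters in capitals, which read ATTGG where the match is on the other strand.
Tcp1, chr17:12916179-12916328, plus strand: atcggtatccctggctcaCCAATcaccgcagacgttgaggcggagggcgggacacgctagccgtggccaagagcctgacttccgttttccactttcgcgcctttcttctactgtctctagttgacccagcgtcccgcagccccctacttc
Cct3, chr3:88296985-88297134, plus strand: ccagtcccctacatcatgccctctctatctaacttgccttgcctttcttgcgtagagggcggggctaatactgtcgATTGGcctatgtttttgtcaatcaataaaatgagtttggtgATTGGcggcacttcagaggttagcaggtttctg
Cct6a, chr5:129787206-129787355, plus strand: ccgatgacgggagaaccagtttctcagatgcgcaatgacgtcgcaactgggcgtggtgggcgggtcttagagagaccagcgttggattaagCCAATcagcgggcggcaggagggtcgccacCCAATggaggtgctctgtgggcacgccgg
Cct7, chr6:85451355-85451504, plus strand: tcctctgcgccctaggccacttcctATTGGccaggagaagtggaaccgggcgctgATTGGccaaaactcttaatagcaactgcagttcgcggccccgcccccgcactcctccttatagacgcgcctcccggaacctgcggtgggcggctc
Cct8, chr16:87495870-87496019, minus strand: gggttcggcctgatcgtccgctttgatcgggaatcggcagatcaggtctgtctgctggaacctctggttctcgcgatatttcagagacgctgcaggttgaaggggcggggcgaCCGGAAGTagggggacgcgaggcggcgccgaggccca

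In Cct3, Cct6a and Cct7 the printed stretch holds a pair of CCAAT letters each, at 74 to 70 and 33 to 29 bases before the start in Cct3, at 59 to 55 and 29 to 25 in Cct6a, and at 125 to 121 and 95 to 91 in Cct7. In Cct3 and Cct7 both are on the opposite strand, and in Tcp1 and Cct6a they are on the gene's strand. A further match of Cct7 lies 187 to 183 bases before the start, outside the printed stretch. The single match of Tcp1 lies 132 to 128 bases before the start, and the CCGGAAGT of Cct8 37 to 30 bases before it.

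The libraries held 8.65 to 15.91 M reads over 1 transcript per gene (M for mega), and WT replicate 4 was the shallowest. Each CCT transcript had between 766 and 3067 reads in a library. All 4 markers of cortical excitatory neurons used here were present in every library. Some libraries also held marker transcripts of tissue outside the cortex. The summed pituitary markers reached 4194 CPM (read counts per mega-count of the library, scaled by TMM) in DG/DG replicate 1, against a highest value of 15.3 CPM in WT. The choroid plexus markers reached 586 CPM in DG/+ and 1265 CPM in WT, against at most 29.8 CPM in DG/DG. Striatal markers varied as well, summing to 89.7 to 595.5 CPM in DG/DG, 75.2 to 652.8 CPM in DG/+ and 123.0 to 300.6 CPM in WT. Vcp itself was at 110.7 ± 4.59 CPM in DG/DG (SD, n = 4), 99.99 ± 4.58 CPM in DG/+ (SD, n = 6) and 97.3 ± 8.32 CPM in WT (SD, n = 4), which does not check the genotypes, since the labels do not say that the allele alters the amount of its transcript.

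The first question was how much of each subunit's transcript the cortex held. All 8 were abundant: their mean CPM lay between the 84.4th percentile (Cct4) and the 92.6th percentile (Tcp1) of the 14565 genes tested. Per kilobase of transcript, the scale on which genes can be compared, the order over the 14 libraries was Cct5 (mean 86.1 CPM per kilobase), Tcp1 (82.2), Cct7 (76.8), Cct2 (75.8), Cct8 (71.6), Cct3 (60.8), Cct6a (45.8) and Cct4 (43.1). Compared within each library, Cct3 was below Cct8 and above Cct6a in 14 of 14 libraries, at mean ratios of 1.18 and 1.32. Between mice the levels of Cct8 (59.0 to 83.0 CPM per kilobase) and Cct3 (51.2 to 74.1) overlapped. Neighbours among the 5 highest were closer: Cct5 was above Tcp1 in 10 of 14 libraries, Tcp1 above Cct7 in 12 of 14, Cct7 above Cct2 in 9 of 14 and Cct2 above Cct8 in 13 of 14. Cct6a was above Cct4 in 13 of 14 libraries at a mean ratio of 1.06. Each of these 5 closer steps was reversed in the remaining libraries, so the order of these neighbours did not hold in every mouse. Their levels also overlapped between mice.

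**Figure D1:**
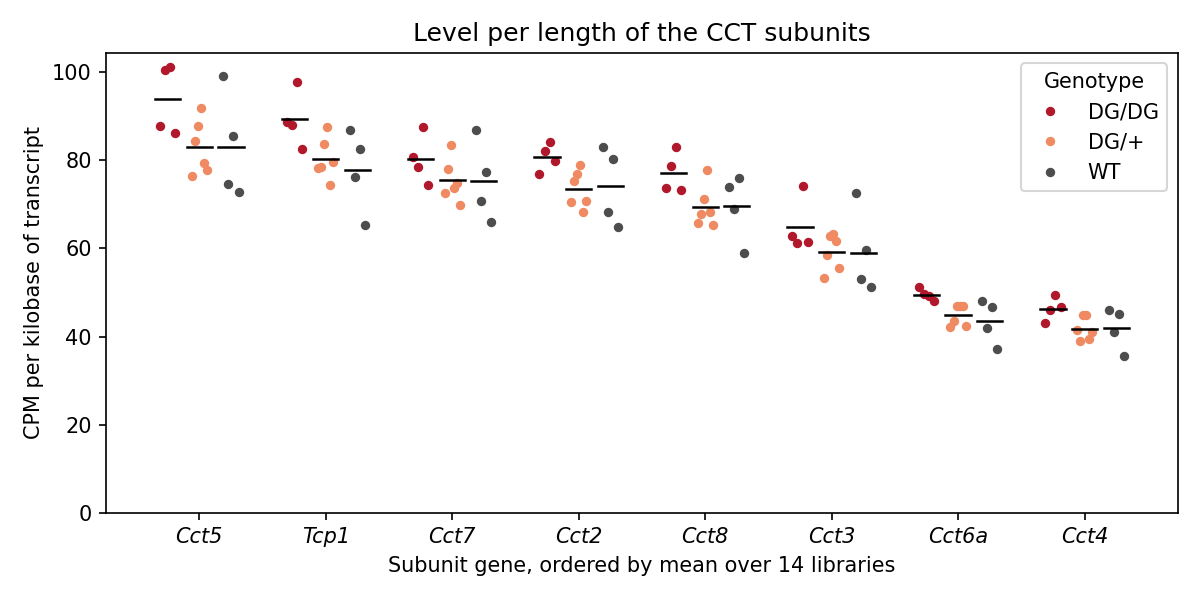
Level of each CCT subunit transcript in CPM per kilobase (vertical axis) in the 14 libraries, with genes ordered by their mean and points coloured by genotype; black lines are the genotype means. 5 subunits lie between 71.6 and 86.1 CPM per kilobase on average, Cct3 at 60.8, and Cct6a and Cct4 lowest at 45.8 and 43.1.

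The order does not follow the known division of the ring into subunits with high and low affinity for ATP, described in yeast: of the high-affinity side, Cct5, Tcp1 and Cct2 were among the 4 highest and Cct4 was the lowest. It depends on the transcript length used. Tcp1, Cct3 and Cct7 have longer annotated transcripts (3419, 3335 and 3884 bases), and with those lengths their means were 58.8, 36.02 and 48.3 CPM per kilobase, which puts Cct3 last. The length of Cct6a is that of the longest transcript of the gene, since its accession was not linked in the annotation used. Within the complex, the shares of the summed level per kilobase differed little between genotypes, most for Cct7. Cct7 held 13.8% ± 0.410 in DG/DG, 14.3% ± 0.724 in DG/+ and 14.4% ± 0.285 in WT (SD, n = 4, 6 and 4). Tcp1 held 15.3% ± 0.388 in DG/DG, 15.2% ± 0.507 in DG/+ and 14.8% ± 0.432 in WT, and Cct4 held 7.96% ± 0.364 in DG/DG, 7.92% ± 0.324 in DG/+ and 8.01% ± 0.272 in WT (SD, n = 4, 6 and 4). Across all libraries the share of a subunit varied within narrow limits, for example 12.4% to 13.95% for Cct8 and 15.1% to 17.2% for Cct5.

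The next question was whether the levels differed by genotype. All 8 subunits averaged higher in DG/DG than in WT and higher in DG/DG than in DG/+, by a small margin, while DG/+ and WT were nearly equal; none of these differences passed the test across all genes. The summed level of the 8 was 1297 ± 71.2 CPM in DG/DG (SD, n = 4), 1175 ± 61.0 CPM in DG/+ (SD, n = 6) and 1168 ± 140.5 CPM in WT (SD, n = 4). The 4 DG/DG libraries spanned 1231 to 1394 CPM, the DG/+ libraries 1118 to 1256 CPM and the WT libraries 1005 to 1325 CPM, so the WT range enclosed every DG/+ library and 3 of the 4 DG/DG libraries. The samples are bulk tissue, in which fewer cells of a type and less RNA per cell cannot be told apart.

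Among the subunits of the high-affinity side, Tcp1, whose subunit gave the complex its older name, had 217.1, 215.6, 239.5 and 201.9 CPM in DG/DG replicates 1 to 4. In DG/+ its lowest, median and highest values were 181.9, 193.3 and 214.1 CPM, and WT replicates 1 to 4 had 212.8, 186.7, 202.3 and 159.9 CPM. 3 of 4 DG/DG libraries were above every WT library, while DG/DG replicate 4 was below WT replicates 1 and 3. In DG/DG against WT, Tcp1 had a log2 fold change of 0.20 (0.014 to 0.38, the 95% confidence interval, given in brackets from here on), with an unadjusted p of 0.0368 and an adjusted p of 0.886 by edgeR's quasi-likelihood test with Benjamini-Hochberg adjustment over 14565 genes. Against DG/+ it was 0.15 (-0.014 to 0.32), and DG/+ differed from WT by 0.045 (-0.12 to 0.21).

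Cct5, the epsilon subunit, in whose human gene mutations cause a hereditary sensory neuropathy, had 162.7, 186.1, 187.4 and 159.7 CPM in DG/DG replicates 1 to 4. Its lowest, median and highest DG/+ values were 141.8, 151.8 and 170.1 CPM, and WT replicates 1 to 4 had 183.8, 138.4, 158.7 and 134.9 CPM. The 4 DG/DG values exceeded 3 of the 4 WT values, and WT replicate 1 lay among the DG/DG values. The log2 fold change was 0.18 in DG/DG against WT (-0.033 to 0.38) and 0.18 in DG/DG against DG/+ (-0.011 to 0.37), the largest of the 8 in that comparison.

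Cct2, the beta subunit, described in mammalian cells also as a receptor that brings protein aggregates to autophagy, averaged 158.3 ± 6.11 CPM in DG/DG, 144.0 ± 8.18 CPM in DG/+ and 145.3 ± 17.5 CPM in WT (SD, n = 4, 6 and 4). Its DG/DG libraries spanned 150.9 to 165.1 CPM and its WT libraries 127.1 to 162.9 CPM, and the groups overlapped. Cct4, the delta subunit, averaged 115.0 ± 6.51 CPM in DG/DG, 103.8 ± 6.47 CPM in DG/+ and 104.2 ± 11.7 CPM in WT. A missense change in rat Cct4 is known to cause an inherited loss of sensory neurons. Their log2 fold changes in DG/DG against WT were 0.12 (-0.050 to 0.30) for Cct2 and 0.14 (-0.035 to 0.32) for Cct4.

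On the low-affinity side, Cct6a, the zeta subunit, had the tightest DG/DG group: 125.8, 121.8, 120.6 and 118.0 CPM in replicates 1 to 4. Its DG/+ libraries had 103.7 CPM at the lowest, 110.9 CPM at the median and 115.3 CPM at the highest, and WT replicates 1 to 4 had 118.2, 102.7, 114.9 and 91.1 CPM. Every DG/DG library was above every DG/+ library, the only subunit for which this held, and 3 of 4 were above every WT library. Such separation between DG/DG and DG/+, with DG/DG higher, was seen for 0.803% of all genes tested. The log2 fold change of Cct6a was 0.19 in DG/DG against WT (0.020 to 0.35; unadjusted p = 0.0304, adjusted p = 0.886, edgeR) and 0.15 in DG/DG against DG/+ (-0.0062 to 0.30; adjusted p = 0.972, edgeR).

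Cct3, the gamma subunit, had 124.2, 121.3, 146.6 and 121.3 CPM in DG/DG replicates 1 to 4. Its DG/+ values were 105.2, 118.7 and 125.0 CPM at the lowest, median and highest, and WT replicates 1 to 4 had 143.5, 104.7, 117.8 and 101.3 CPM. A single library stood high in each of the homozygous and wild-type groups, DG/DG replicate 3 and WT replicate 1, and the log2 fold change in DG/DG against WT was 0.14 (-0.085 to 0.36). Cct8, the theta subunit, averaged 184.8 ± 11.1 CPM in DG/DG, 166.1 ± 11.1 CPM in DG/+ and 166.5 ± 18.2 CPM in WT (SD, n = 4, 6 and 4), and DG/DG differed from WT by 0.15 on the log2 scale (-0.028 to 0.33). Cct7, the eta subunit, showed the smallest difference: it averaged 196.1 ± 13.4 CPM in DG/DG, 184.2 ± 11.8 CPM in DG/+ and 183.6 ± 22.1 CPM in WT, a log2 fold change of 0.094 (-0.090 to 0.28).

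**Figure D2:**
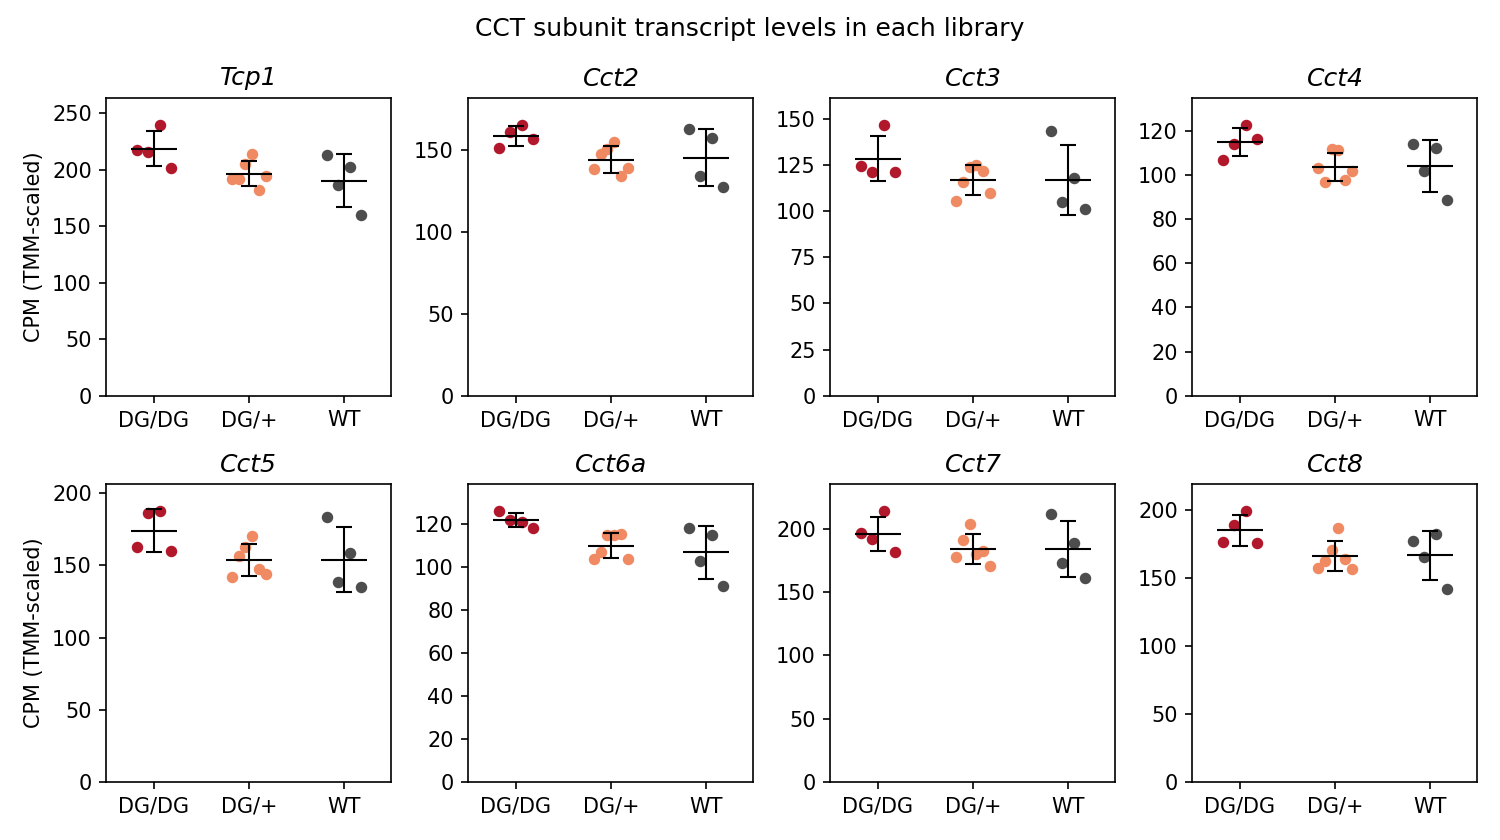
Level of each CCT subunit transcript in CPM (vertical axes, from 0) in the 4 DG/DG, 6 DG/+ and 4 WT libraries; points are libraries in replicate order, and bars are mean ± SD. The DG/DG means are highest in all 8 panels, for example 218.5 CPM against 190.4 CPM in WT for Tcp1, and the WT points spread over the range of the other groups.

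Counted over the 8 subunits, 0 were called in DG/DG against WT at an adjusted p below 0.05 (0% of all 14565 genes were called), with adjusted p-values of 0.886 to 0.913 by edgeR. At an unadjusted p below 0.05, 2 subunits passed, Tcp1 and Cct6a, both higher, against 5.12% of all genes and 2.14% of all genes on the higher side. The fold change was above 0 for 8 of 8 subunits, against 50.1% of all genes, and its median was 0.15 on the log2 scale (range 0.094 to 0.20), against 0.00028 over all genes. For 0 of 8 did DG/DG and WT not overlap (1.43% of all genes, higher in DG/DG). Since the 8 subunits varied together from library to library, their 8 directions are not 8 independent observations.

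In DG/DG against DG/+, which shares the DG/DG libraries with the comparison above, 0 of 8 were called (0% of all genes; adjusted p = 0.972 for each, edgeR) and 0 passed an unadjusted p of 0.05 (3.3% of all genes, 1.68% on the higher side). The fold change was above 0 for 8 of 8 subunits (50.6% of all genes), with a median of 0.15 (range 0.09 to 0.18) against 0.0023 over all genes. In DG/+ against WT, 0 of 8 were called (0% of all genes; adjusted p = 0.999943 for each, edgeR), 0 passed an unadjusted p of 0.05 (1.6% of all genes, 0.755% on the higher side), the libraries of the groups overlapped for all 8 (0.144% of all genes stood apart with DG/+ higher), and 3 of 8 were above 0 (47.3% of all genes). The median there was -0.0015, within a range of -0.014 (Cct2) to 0.045 (Tcp1), against -0.0068 over all genes. A fit on the number of DG alleles gave a median of 0.073 per allele (range 0.047 to 0.099), with 0 of 8 called (0% of all genes) and 8 above 0 (50% of all genes), and 2 at an unadjusted p below 0.05 (5.65% of all genes, 2.42% on the higher side), again Tcp1 and Cct6a.

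The intervals say what these data could show. Their median width on each side of the estimate was 0.18 in DG/DG against WT and 0.16 in both other comparisons, on the log2 scale. That is close to the medians of 0.15 in both comparisons of DG/DG, and wider than each of the differences between DG/+ and WT. In the authors' deposited table the log2 fold changes of the 8 subunits in DG/DG against WT ran from 0.10 (Cct7) to 0.21 (Tcp1), with a false discovery rate of 1 for each, and in DG/+ against WT from -0.0013 (Cct2) to 0.057 (Tcp1), also with a false discovery rate of 1. Leaving out WT replicate 4 lowered the median of DG/DG against WT to 0.077, and leaving out WT replicate 1 gave 0.21. Without 4 libraries picked from an earlier look at these data (replicate 1 of DG/DG, replicate 2 of DG/+ and replicates 2 and 3 of WT), it was 0.18, with 0 of 8 called (0% of all genes). By the marker lists used here WT replicate 2 did not stand apart, with 15.3 CPM of summed pituitary markers and 25.9 CPM of summed choroid plexus markers. Without the 6 libraries that held more than 100 CPM of either (replicates 1 and 2 of DG/DG, replicates 1, 5 and 6 of DG/+ and replicate 3 of WT), the median was 0.20 in DG/DG against WT, 0.096 in DG/+ against WT and 0.10 in DG/DG against DG/+. In each, 0 of 8 were called (0% of all genes). That second choice did not use the striatal markers and was made after seeing the data. Without WT replicate 1, 6 of the 8 had an unadjusted p below 0.05 in DG/DG against WT, where 9.98% of all genes did. None of the 8 did without WT replicate 2 (3.82% of all genes), without WT replicate 4 (2.35%) or without DG/DG replicate 1 (3.54%).

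**Figure D3:**
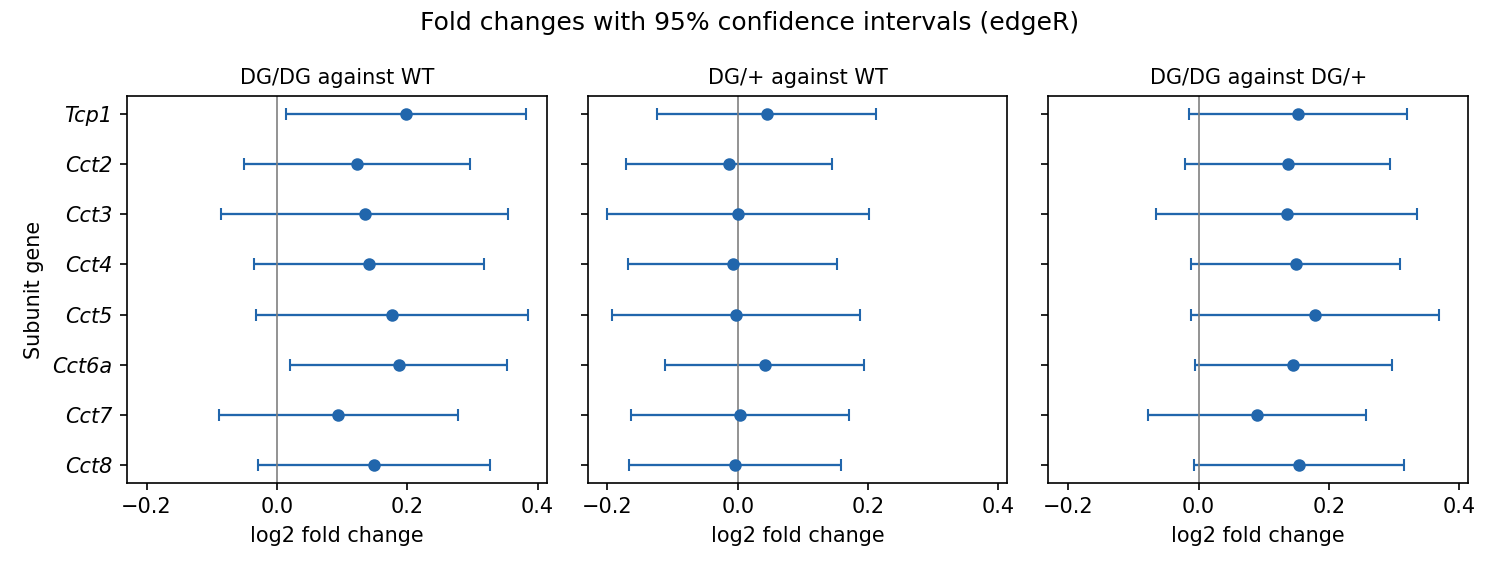
Log2 fold change of each CCT subunit (horizontal axis) with its 95% confidence interval from edgeR, in DG/DG against WT, DG/+ against WT and DG/DG against DG/+. The points lie between 0.094 and 0.20 in the first panel, around 0 in the second and between 0.09 and 0.18 in the third; in the first panel only the intervals of Tcp1 and Cct6a lie above 0.

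The subunits also varied between libraries of 1 genotype, and in many libraries the 8 transcripts stood high or low together. All 8 were above their own mean in DG/DG replicates 1, 2 and 3 and in WT replicate 1, and all 8 were below it in WT replicates 2 and 4 and in DG/+ replicates 1 and 6. The mean deviation over the 8 was highest in DG/DG replicate 3 (0.21 on the log2 scale), next in WT replicate 1 (0.14), and lowest in WT replicate 4 (-0.26), so the wild-type group held the library with the lowest and the library with the second highest levels.

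**Figure D4:**
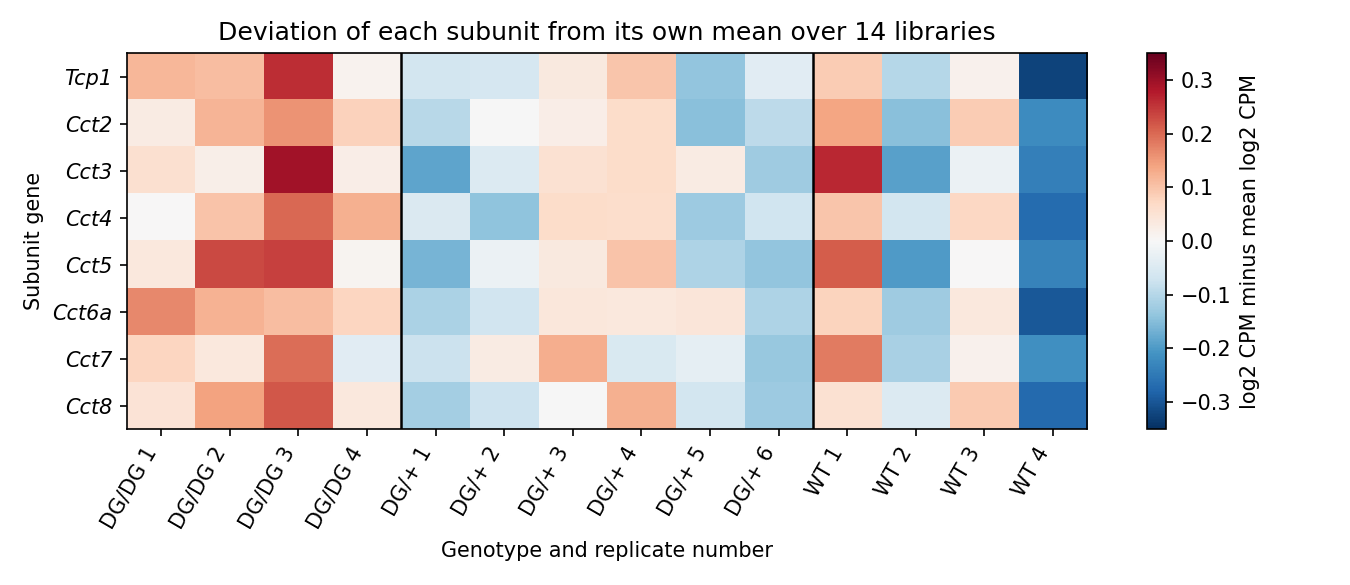
Deviation of each subunit's log2 CPM from its own mean over 14 libraries (colour; red above, blue below), with libraries in columns by genotype and replicate and genes in rows. Whole columns share a colour, from the 0.21 mean deviation of DG/DG replicate 3 to the -0.26 of WT replicate 4.

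All 28 pairs of subunits correlated positively across the 14 libraries. Pearson's r of log2 CPM had a median of 0.83, from 0.72 (Cct4 and Cct7) to 0.94 (Cct2 and Cct5), and Spearman's rho had a median of 0.80, from 0.62 to 0.93. By two-sided permutation tests with 100000 resamples, adjusted over the 28 pairs, the largest p was 0.00411 for Pearson's r and 0.0206 for Spearman's rho. With the deviation from each genotype's mean in place of the level, pooled over the 14 libraries, r had a median of 0.78 (0.66 to 0.91). WT weighs most in this, since the SD of the mean log2 CPM was 0.175 in WT and 0.074 in DG/DG and in DG/+. The relation was not computed inside each genotype. In DG/DG, Cct6a was highest in replicate 1 (125.8 CPM), where Cct4 (106.9 CPM) and Cct2 (150.9 CPM) were lowest. For each pair, r was also taken without the 2 libraries farthest from the median of its first-named gene, so the libraries left out could differ by pair. It then had a median of 0.76, from 0.45 (Cct7 and Cct8) to 0.90 (Cct2 and Cct5). Leaving out each library in turn gave medians of 0.77 (without WT replicate 4) to 0.87 (without DG/+ replicate 5). Of single subunits, Cct2 had the highest median r with the other 7 (0.89) and Cct7 the lowest (0.796).

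The libraries in which the subunits stood high differed in their markers of neuron types. The summed CPM of the cortical excitatory markers (Slc17a7, Neurod6, Camk2a and Tbr1, none at 0) was 2071 to 2904 in DG/DG, 2106 to 3262 in DG/+ and 2181.9 to 3211 in WT. It was 2071 in DG/DG replicate 3 and 2181.9 in WT replicate 1, the 2 libraries with the highest subunit levels, and 3028 in WT replicate 4, which had the lowest. Across the 14 libraries it correlated negatively with the mean log2 CPM of the 8 subunits (Pearson's r = -0.72, permutation p = 0.00306, adjusted p = 0.0367; Spearman's rho = -0.77, permutation p = 0.0022, adjusted p = 0.0264; adjusted over 12 measures). The value was -0.68 with the genotype means subtracted, pooled over the 14 libraries. It was -0.65 without the 2 libraries farthest from the median of the marker sum. Camk2a, the kinase subunit of excitatory synapses, made up 62.5% of this sum and had r = -0.74 by itself. Slc17a7 made up 33.1% and had r = -0.52. The transcription factor Tbr1 had r = -0.69, while Neurod6 had r = -0.14.

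The summed inhibitory markers (Gad1, Gad2, Slc32a1, Pvalb, Sst and Vip) ran the other way, with r = 0.64 and rho = 0.62 (permutation p = 0.0145 and 0.0211, adjusted p = 0.0871 and 0.105), which did not pass the adjustment, and r was 0.35 without the 2 farthest libraries. The 6 genes of this sum differed in it: Gad2 and Gad1, the enzymes that make GABA, had r = 0.71 and 0.59 and made up 25.4% and 46.8% of the sum, Slc32a1 had 0.32, Sst 0.096 and Vip -0.093, and Pvalb had -0.40. Their sums were 690.2 to 1095 CPM in DG/DG, 749.2 to 1005 CPM in DG/+ and 733.1 to 1011 CPM in WT. The other 10 measures were 8 marker lists, library depth and each library's trend with GC content. Their Pearson's r lay between -0.51 and 0.36, none with an adjusted p below 0.05. Among these lists were the striatal markers, with r = 0.35, and 0.039 without the 2 farthest libraries. Their sum was highest within each genotype in DG/DG replicate 3 (595.5 CPM), DG/+ replicate 4 (652.8 CPM) and WT replicate 1 (300.6 CPM). These libraries also had the lowest excitatory and the highest inhibitory sums of their genotypes. These relations were looked for after the levels had been seen, and the part of cell composition in the subunit levels was not tested.

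By the rule for likeness, the 10 genes whose log2 CPM followed the mean of the 8 subunits most closely, out of 10045 genes averaging 10 CPM or more, were Chmp2a, Ubfd1, Vdac3, M6pr, Ndufb3, Uqcrc2, Pja1, Ndufv2, Pdxdc1 and Ran. Pearson's r over the 14 libraries ran from 0.98 (Chmp2a) to 0.93 (Ran), a description with no test, since the genes were picked for it. Chmp2a encodes a component of the ESCRT-III complex, Vdac3 a channel of the outer mitochondrial membrane, M6pr a receptor that sorts lysosomal enzymes, and Ran the GTPase of nuclear transport. Ndufb3 and Ndufv2 encode subunits of respiratory complex I and Uqcrc2 one of complex III, and Pja1 a ubiquitin ligase. Over all 10045 genes the median r was 0.042, and 267 genes (2.66%) had r above 0.8, so strong likeness to the subunits was not rare. Vcp had r = 0.83 with the mean of the 8.

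Genes overlap some of the subunit genes on the opposite strand, and whether the counting used strand is not given in the sources used here. Acat3 overlaps Tcp1 over 1255 bases, Psph overlaps Cct6a over 452 bases and Usp16 overlaps Cct8 over 192 bases. Mrpl18 overlaps Tcp1 over 645 bases that hold none of its exons, and Pradc1, not analysed here, overlaps Cct7 over 457 bases with 1 exon inside. These were low beside the subunits: Acat3 averaged 5.95 ± 1.18 CPM in DG/DG, 5.11 ± 0.654 CPM in DG/+ and 4.75 ± 0.968 CPM in WT, and Psph 15.5 ± 1.34 CPM in DG/DG, 14.3 ± 0.880 CPM in DG/+ and 14.3 ± 1.91 CPM in WT (SD, n = 4, 6 and 4). Mrpl18 averaged 30.5 ± 3.24 CPM in DG/DG, 28.3 ± 1.82 CPM in DG/+ and 27.6 ± 1.28 CPM in WT, and Usp16 26.9 ± 3.88 CPM in DG/DG, 28.8 ± 3.29 CPM in DG/+ and 28.5 ± 3.22 CPM in WT. Acat3 had r = 0.011 with the mean of the subunits, Mrpl18 0.51, Psph 0.44 and Usp16 -0.26. The testis-expressed relative Cct6b had at most 6 reads in a library and the related Cct8l1 at most 5, so neither was tested.

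Lists of CCT's cofactors and clients were set beside the subunits, and 0 genes of any list were called in any of the 3 comparisons (0% of all genes). Beside the counts of higher genes given for each list, 50.1% of all genes were above 0 in DG/DG against WT. Several listed genes varied with the subunits across the same libraries, so the directions within a list are not independent observations. Of the 5 prefoldin subunits measured, 4 averaged higher in DG/DG than in WT, with a median log2 fold change of 0.13. Pfdn1 averaged 37.7 ± 0.765 CPM in DG/DG, 33.8 ± 1.91 CPM in DG/+ and 33.95 ± 4.19 CPM in WT (SD, n = 4, 6 and 4), giving a log2 fold change of 0.15 (-0.035 to 0.33) against WT, and Pfdn5 had 0.13 (-0.039 to 0.29). Pfdn4 differed most between DG/DG and DG/+, by 0.21 (0.038 to 0.38; unadjusted p = 0.0200, adjusted p = 0.972, edgeR). The prefoldin-like subunit Uxt, a low gene, averaged 1.496 ± 0.183 CPM in DG/DG, 2.004 ± 0.274 CPM in DG/+ and 2.06 ± 0.188 CPM in WT, a log2 fold change of -0.46 (-0.90 to -0.026; unadjusted p = 0.0392, adjusted p = 0.886, edgeR) against WT. Pfdn6, Uri1 and Pdcl2 were not analysed here.

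The 3 phosducin-like cofactors tested had log2 fold changes of 0.16 (Pdcl3), 0.10 (Txndc9) and 0.065 (Pdcl) in DG/DG against WT, with intervals that included 0. Among chaperonin-related proteins of the primary cilium, which work with CCT to build the BBSome, Mkks had 0.22 (0.040 to 0.39; unadjusted p = 0.0192, adjusted p = 0.886, edgeR), Bbs10 0.19 (-0.18 to 0.56) and Bbs12 -0.11 (-0.71 to 0.48). The tubulin folding cofactors, which act on tubulin after it leaves CCT, were divided, with 3 of 7 higher and a median of -0.030. Of these, Tbcel had -0.084 and Tbcb 0.089 in DG/DG against WT, and Tbca had 0.24 in DG/DG against DG/+ (0.0038 to 0.47; unadjusted p = 0.0468, adjusted p = 0.972, edgeR).

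Among the clients, 5 of 6 actins and actin-related genes averaged higher in DG/DG than in WT, with a median of 0.11. Cytoplasmic gamma actin, Actg1, averaged 162.3 ± 6.06 CPM in DG/DG, 154.6 ± 14.6 CPM in DG/+ and 137.9 ± 12.8 CPM in WT (SD, n = 4, 6 and 4), and its log2 fold change was 0.23 in DG/DG against WT (0.056 to 0.41; unadjusted p = 0.0133, adjusted p = 0.886, edgeR) and 0.16 in DG/+ against WT (0.00093 to 0.33; unadjusted p = 0.0489, adjusted p = 0.999943, edgeR). The groups of Actg1 in DG/DG and WT overlapped in 1 WT library at 156.4 CPM, against a lowest DG/DG value of 154.5 CPM. Actr3 of the actin branching complex had 0.17 and Actb 0.12 in DG/DG against WT.

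Of 14 tubulins, 12 averaged higher in DG/DG than in WT, with a median of 0.14. These include the low genes Tuba1c and Tubb6, at 1.14 and 1.28 CPM in DG/DG, with intervals of -0.82 to 1.13 and -0.64 to 1.25. The neuronal alpha tubulin Tuba1a averaged 509.8 ± 21.8 CPM in DG/DG, 472.9 ± 46.1 CPM in DG/+ and 440.2 ± 62.9 CPM in WT (SD, n = 4, 6 and 4), giving a log2 fold change of 0.21 (-0.0030 to 0.43) against WT, and Tuba1b, whose reads could be shared with this near-identical gene, had 0.18. Tubb4a, a beta tubulin abundant in oligodendrocytes, averaged 320.1 ± 39.2 CPM in DG/DG, 365.3 ± 35.5 CPM in DG/+ and 364.9 ± 40.0 CPM in WT, a log2 fold change of -0.19 (-0.41 to 0.035). Over the 14 libraries Tuba1a had r = 0.85 and Tubb4a r = -0.74 with the mean of the subunits. The summed oligodendrocyte markers were 1673 to 2731 CPM in DG/DG, 2166.3 to 2791 CPM in DG/+ and 1486 to 2807 CPM in WT, and their part in the level of Tubb4a was not tested. Of 11 other clients, 8 averaged higher in DG/DG than in WT, with a median of 0.026, and the one with the smallest p, the G protein subunit Gnb4, had 0.37 (-0.16 to 0.90), followed by Vhl with 0.13 (-0.059 to 0.32) and Gnb5 with 0.16 (-0.13 to 0.45).

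The mitochondrial chaperonin, which is a separate machine of the same family, stood close to the cytosolic one. Hspd1 averaged 86.8 ± 5.16 CPM in DG/DG, 78.9 ± 5.02 CPM in DG/+ and 78.4 ± 7.30 CPM in WT (SD, n = 4, 6 and 4), and its cofactor Hspe1 23.3 ± 2.21 CPM in DG/DG, 21.3 ± 2.11 CPM in DG/+ and 20.8 ± 2.62 CPM in WT. Their log2 fold changes in DG/DG against WT were 0.15 (-0.022 to 0.31) and 0.16 (-0.068 to 0.40), and r with the mean of the CCT subunits was 0.90 and 0.88. Such values were not particular to chaperonins. Hspa8, of the cytosolic chaperones, had r = 0.91 and a log2 fold change of 0.15 (-0.033 to 0.34), and 267 of 10045 genes had r above 0.8. Of 13 heat shock regulators and cytosolic chaperones, 10 averaged higher in DG/DG than in WT, with a median of 0.080. Hsp90aa1, the inducible cytosolic HSP90, had 0.21 (0.021 to 0.41; unadjusted p = 0.0320, adjusted p = 0.886, edgeR), and Hspa4, of the HSP110 family, 0.12 (-0.0052 to 0.25). Hsf1, the transcription factor of the heat shock response, had -0.26 (-0.54 to 0.021), and the stress-induced Hspa1a had -0.31 and Hspa1b -0.20; these near-identical copies may share reads and were named after their values were seen.

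**Figure D5:**
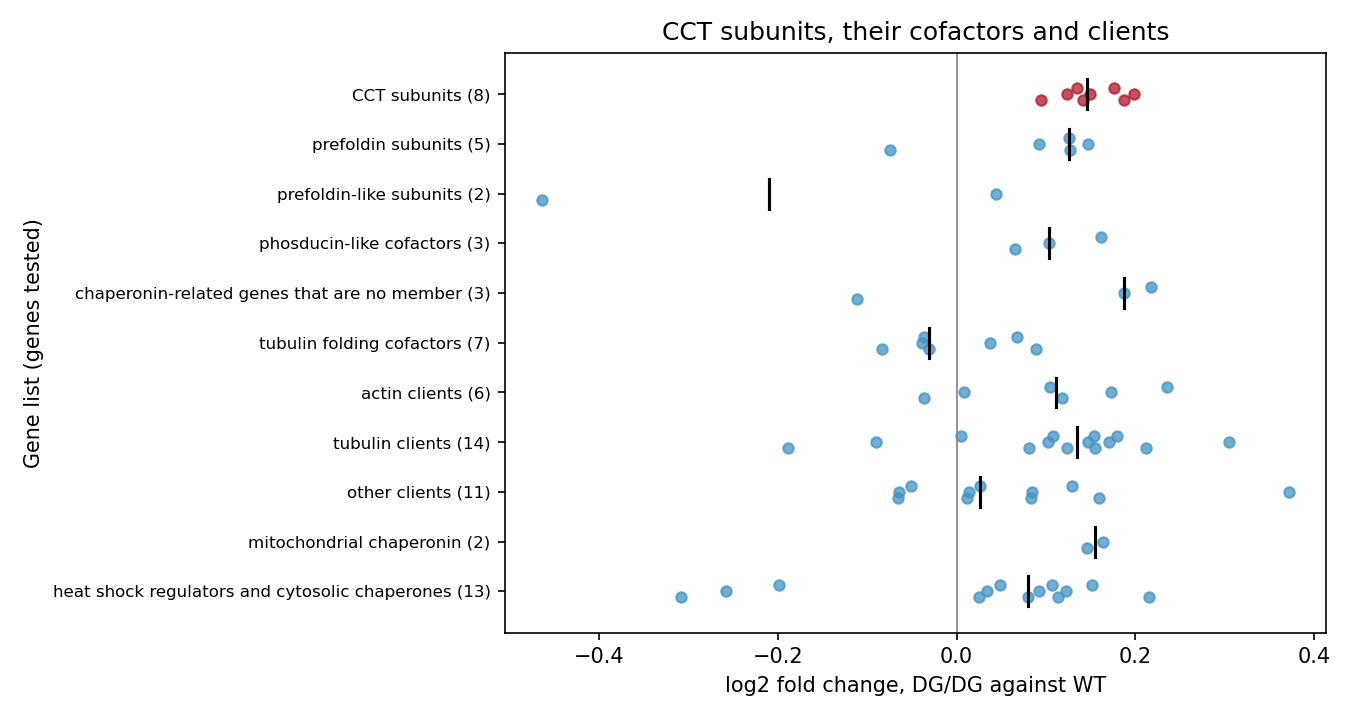
Log2 fold change in DG/DG against WT (horizontal axis) of the 8 CCT subunits (red) and of the tested genes of 10 lists of cofactors, clients and other chaperones (blue), with black lines at the medians and the number of genes tested in brackets. The medians are 0.15 for the subunits, 0.13 for prefoldin, 0.14 for the tubulins and -0.030 for the tubulin folding cofactors.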

How the data were processed

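The authors deposited 1 table of 24939 RefSeq transcripts with raw read counts of 14 libraries, log2 values that the authors normalized by a procedure not given in the sources used here, and the authors' edgeR log2 fold changes and p-values, per the file headers. The submitters' processing notes name mm10 and edgeR, with aligner and counter not given in the sources used here. Replicates are separate mice, per the labels' mouse numbers. Replicate numbers follow the titles; in WT, replicates 2, 3 and 4 are mice 3, 4 and 2.

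For each symbol the transcript with the most reads was kept. Counts were fitted in R 4.3.3 with edgeR 4.0.16 (default filter, 14565 genes; TMM; robust quasi-likelihood model of all 14 libraries), and p-values were adjusted over all 14565 genes by Benjamini-Hochberg, with calls at 0.05. The procedure was tested on simulated data with planted changes larger than those of the subunits, so that test does not cover differences this small. Levels are CPM, or CPM per kilobase of the RefSeq-linked transcript. The log2 CPM used a prior count of 2. Promoters came from RefSeq (GRCm38.p6). Depth was 8.65 to 15.91 M reads, and precision is given as 95% intervals.

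Genes that could be named were the 8 subunits, the 10 most like their mean, and at most the 3 smallest p of each list in a comparison; any others were chosen after their values were seen. 1 listed marker of excitatory neurons is not reported here and is left out of their sum. Members, lists and tests were chosen with earlier results of these data known. Alternatives were DESeq2 1.42.0, limma 3.58.1 (voom, and trend on the authors' log2 values), other scaling and filters, every transcript or distinct transcripts summed, an offset for length and GC, 1 surrogate variable (sva 3.50.0), the replicate or mouse number as a block, only the genotypes compared, a threshold of 0.1, and leaving out libraries.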

Additional observations from a re-analysis of the deposited data

Results flagged for a closer look

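The level of Cct3 in DG/DG replicate 3 stood apart from the rest of its group. It was 7.20 on the log2 CPM scale (146.6 CPM), and the next highest DG/DG library was at 6.96. The gap was 0.875 of the group's range, above the critical value of 0.829 of Dixon's test for 4 samples. It was 1 of 27 such tests of single subunits and of their mean in the 3 genotypes, and chance flags about 1 in 20. The same library had the highest mean level of all 8 subunits, and WT replicate 1 had nearly as much Cct3, 143.5 CPM.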

How the results depend on the processing

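In every alternative run, 0 of the 8 subunits were called in any comparison, also at an adjusted p below 0.1. Over all genes, 0% were called in each run too, so this does not set the subunits apart. Of the recomputed values, 1267 were labelled unchanged, while 3 levels per kilobase moved by more than their SD over the libraries. Single subunits and counts were labelled by the threshold alone, so with nothing called they could not change. Medians were unchanged if they moved by less than 0.111, the SD within genotype of the subunits' mean log2 CPM. A fall of the median in DG/DG against WT from 0.15 to 0.077 thus passed. For the median r of the pairs the limit was the SD of r over the pairs. The sign held in every alternative for the median in DG/DG against WT and in DG/DG against DG/+, but not in DG/+ against WT, where no difference was called: there the median was above 0 in 17 of 31 alternatives, Cct3 in 18, Cct5 in 11, Cct8 in 10, Cct4 in 9, Cct2 in 8 and Cct7 in 24. The median log2 fold change in DG/DG against WT was 0.077 (without WT replicate 4) to 0.21 (without WT replicate 1) when single libraries were left out, and 0.11 (offset for length and GC) to 0.20 (without the 6 libraries with over 100 CPM of pituitary or choroid plexus markers) otherwise. In DG/+ against WT it was -0.061 (without WT replicate 4) to 0.087 (without WT replicate 1), and -0.014 to 0.096 otherwise, the highest again without those 6 libraries. In DG/DG against DG/+ it was 0.12 (without DG/DG replicate 3) to 0.16, and 0.10 to 0.16 otherwise, and per DG allele 0.045 to 0.11, and 0.054 to 0.098 otherwise. With only the genotypes compared in the fit, 6 subunits had an unadjusted p below 0.05 in DG/DG against DG/+ (5.64% of 14355 genes) and 0 in DG/DG against WT (3.56% of 14206 genes). The 3 levels that moved were of Tcp1, Cct3 and Cct7 with the longest transcript length. Alternatives for the median r of the pairs were chosen after seeing the data and gave 0.77 to 0.87.

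With the replicate block the medians were 0.147 in DG/DG against WT, 0.033 in DG/+ against WT and 0.123 in DG/DG against DG/+, with 0 called (0% of all genes). Whether same-numbered mice were paired is not given in the labels, and correlations of levels cannot show it. Over 12 pairs of same-numbered libraries the correlation of deviations was -0.22 to 0.29 (median 0.072), and 3 of 14 libraries correlated best with their own number. In WT the mouse numbers of the labels order 3 of the animals differently. With the mouse number as the block, a choice made after seeing the data, the medians were 0.15, 0.031 and 0.13, with 0 called (0% of all genes). By mouse number the correlation over 12 pairs was -0.37 to 0.46 (median -0.038), and 6 of 14 libraries correlated best with their own number.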
